A study of Mus musculus with 12 samples.

Results

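Lysosomal membrane proteins and channels were examined through the accessibility of the chromatin around 10 genes: Lamp1, Lamp2, Cd68, Scarb2, Mcoln1, Tmem175, Tpcn1, Clcn7, Ostm1 and Grn. All peaks whose nearest gene in the deposited tables was 1 of these 10 were taken, with no selection on their values. They came to 164 of 281974 peaks, of which 88 of 91770 were in the microglia table, 36 of 107627 in the NeuN+ table and 40 of 82577 in the Olig2+ table. The assay was ATAC-seq (a transposase cuts and tags open chromatin), on forebrain of C57BL/6 mice aged 4 months. Wild-type (WT) mice were compared with SgshKO mice, a knockout of Sgsh, which encodes a lysosomal enzyme that breaks down heparan sulfate. There were 3 sorts with 2 WT and 2 SgshKO libraries each, 12 in all. Microglia were live cells sorted as CD11b+/CX3CR1+ with low CD45. NeuN+ (neuronal) nuclei, negative for PU.1 and OLIG2, and Olig2+ (oligodendrocyte-lineage) nuclei, negative for PU.1 and NeuN, were sorted after a light formaldehyde fixation. The labels do not say how the Sgsh allele was made, of which sex the animals were, or how many animals a library holds, so that replicates may be technical and p-values measure the spread between these libraries only.

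Lysosomes are acidic compartments that digest material delivered by endocytosis and autophagy. Their limiting membrane is lined by heavily glycosylated proteins such as LAMP1 and LAMP2, and ion channels and exchangers in it set luminal pH and calcium release. Many lysosomal genes carry E-box elements of the CLEAR type near their start sites, which transcription factors of the MiT/TFE family can bind.

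Stretches of the start-site regions show how the members differ in such elements. RefSeq promoters (mouse GRCm38.p6, whose coordinates are those of mm10) were found for 9 of the 10 genes (all but Tpcn1), with 2 for Clcn7, and each spanned 250 bases before to 50 after the start site. The letters CACGTG (the E-box core, the same on both strands) occurred in 7.15% of 32851 promoters of that length and in those of Lamp1, Mcoln1 and the main one of Clcn7. The sequences are given 5′ to 3′ on the gene's strand, with matches in capitals: CACGTG in the first 3 and TGANTCA, an AP-1 motif, in that of Cd68. The stretch of Ostm1 is shown as a start site without a match to any motif searched. They come from chr8:13159086-13159160 (plus strand) for Lamp1, chr8:3500434-3500518 (plus) for Mcoln1, chr17:25133346-25133410 (plus) for Clcn7, chr11:69666171-69666335 (minus) for Cd68 and chr10:42678816-42678915 (plus) for Ostm1.
Lamp1: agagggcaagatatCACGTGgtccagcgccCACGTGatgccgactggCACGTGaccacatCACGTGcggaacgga
Mcoln1: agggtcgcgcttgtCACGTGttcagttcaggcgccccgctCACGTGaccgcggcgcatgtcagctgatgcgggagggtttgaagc
Clcn7: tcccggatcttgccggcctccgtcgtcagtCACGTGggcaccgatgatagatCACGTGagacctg
Cd68: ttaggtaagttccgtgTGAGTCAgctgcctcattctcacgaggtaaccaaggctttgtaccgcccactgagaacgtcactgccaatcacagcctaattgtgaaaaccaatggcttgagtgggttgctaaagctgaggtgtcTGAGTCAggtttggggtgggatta
Ostm1: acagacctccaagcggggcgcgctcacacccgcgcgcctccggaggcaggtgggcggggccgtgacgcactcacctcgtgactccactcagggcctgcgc

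Lamp1 had 4 matches to CACGTG, with first bases at positions -61, -45, -28 and -15 from its start site, and 8 of all promoters held 4 or more. Mcoln1 had 2 and Clcn7 had 2. Every CACGTG match of these genes also held the longer TCACGTG on one strand or the other, which 3.77% of promoters contained. TGANTCA occurred in 7.81% of promoters and, of the 9 members searched (not Tpcn1), in that of Cd68 alone, where 2 matches began at positions -149 and -24. TCATGTG (M-box, 3.77%) was found for Scarb2, Grn and the second promoter of Clcn7, and AGGAAGT (an ETS core, 9.35%) for Tmem175 and that second promoter. All motifs were searched on both strands, and a match is a description of the letters, not a bound site.

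The library totals ran from 10771659 to 19555924 tags, and 21.2% to 67.4% of them lay in peaks. Values are tags scaled by the authors to 10000000 per library, and log2 changes are on the log2(tags + 1) scale, which understates changes of low peaks. A peak was called where the Benjamini-Hochberg adjusted p of limma over its whole table was under 0.05. The markers chosen for each sort had a start-site peak in that sort for all genes summed (8 of 8 in microglia and NeuN+, 7 of 7 in Olig2+ nuclei). In microglia, blood myeloid markers had a peak for 1 of 6 (S100a8, with sums of 18.15 and 22.03 tags in WT and 22.5 and 9.28 in SgshKO), while Ccr2, Ly6c2, S100a9, Plac8 and Hp had none. Oligodendrocyte markers summed there to 219 and 206 tags in WT and 275 and 245 in SgshKO (4 of 7 with a peak; Mag, Mobp and Sox10 with none), and neuronal ones to 46.7 and 49.98 against 72.7 and 56.6 (2 of 8 with a peak; Gad1, Gad2, Rbfox3, Snap25, Stmn2 and Syt1 with none). WT and SgshKO did not overlap in either sum, but 1 oligodendrocyte marker was higher in both SgshKO libraries and 1 was lower. The precursor markers went the other way, from 108 and 78.8 tags in WT to 51.95 and 48.3 in SgshKO (1 of 4 with a peak). Astrocyte and endothelial sums overlapped between the genotypes. In Olig2+ nuclei the summed oligodendrocyte markers were at 2541 and 2506 in WT and 2125 and 2164 in SgshKO, and the precursor markers at 286 and 286 against 331 and 328. The neuronal markers of NeuN+ nuclei had 804 and 744 tags for WT and 436 and 451 for SgshKO. Other lists were also lower in SgshKO there, with 109 and 93.8 against 48.9 and 46.4 for oligodendrocyte, 137 and 127 against 86.6 and 97.8 for astrocyte and 54.4 and 48 against 34.2 and 32.4 for microglia markers. The part of these marker shifts in the results below was not tested, and fewer cells of a type and less signal per cell cannot be told apart in such libraries.

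In SgshKO microglia 8 of 88 member peaks rose, among them the start sites of Cd68 and Tpcn1, and 0 fell, where 5.05% of all peaks rose and 2.33% fell. After scaling to in-peak tags 10 rose and 8 fell. In NeuN+ nuclei 0 of 36 rose and 6 fell, among them the start sites of Tpcn1, Ostm1 and Scarb2, where 10.2% of all peaks rose and 19.6% fell. In Olig2+ nuclei 4 of 40 rose, led by the E-box-rich start site of Lamp1, and 9 fell, where 8.17% of all peaks rose and 11.7% fell. Within 1000 bp of a start site, 2 of 21 microglia members rose and 0 fell, where 8.59% of all such peaks rose and 1.20% fell. In NeuN+ nuclei 0 of 16 such members rose and 3 fell, where 1.74% rose and 44.9% fell, with a median log2 change of -0.53. In Olig2+ nuclei 4 of 17 rose and 4 fell, where 12.7% rose and 7.56% fell. As deposited, the balance of member calls leaned the way that of all peaks did in each sort. After in-peak scaling it did not in microglia, where 35.1% of all calls were higher. Nor did it in NeuN+ nuclei, where 0 members rose and 2 fell while 66.5% of all calls were higher.

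**Figure D1:**
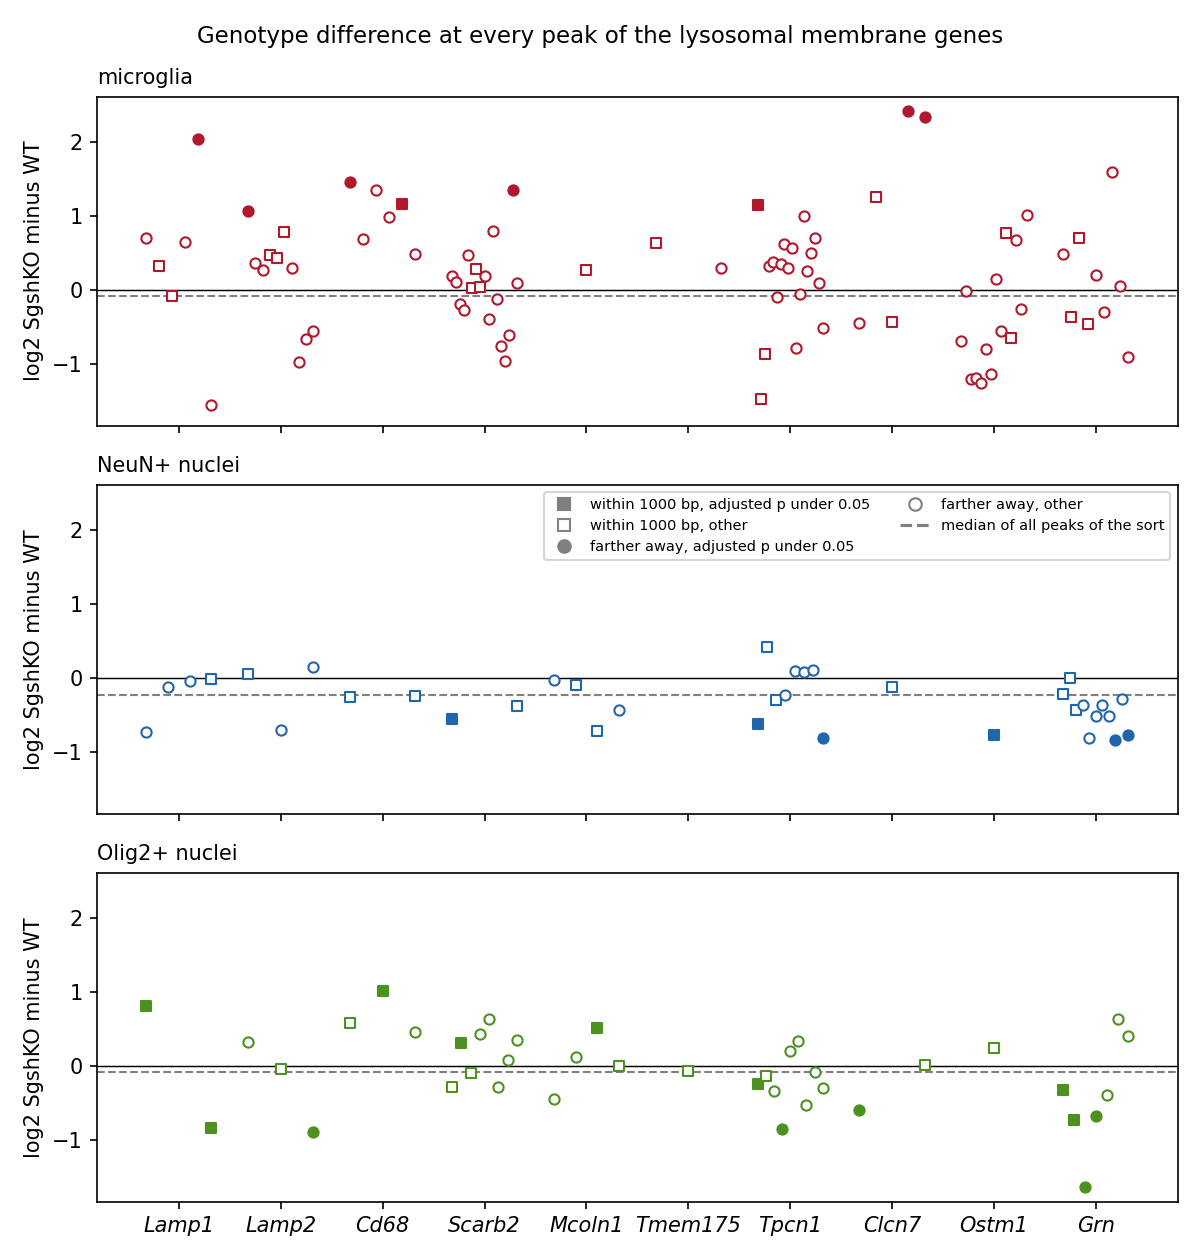
Each symbol is 1 peak of a member gene, with its log2 change (SgshKO minus WT) on the vertical axis and the peaks of a gene in order of position; squares lie within 1000 bp of the start site, filled symbols have a limma adjusted p under 0.05 and the dashed line is the median of all peaks of the sort. The 8 filled symbols of microglia lie above 0, the 6 of NeuN+ nuclei below it, and the 13 of Olig2+ nuclei on both sides.

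Over all peaks, limma called 7.37% in microglia, against 9.09% of the members. In NeuN+ nuclei it called 29.8%, against 16.7% of the members, and in Olig2+ nuclei 19.8%, against 32.5% of the members. Members had a median log2 change of 0.23 (microglia), -0.29 (NeuN+) and -0.05 (Olig2+), beside -0.08, -0.23 and -0.07 over all peaks. Both SgshKO libraries lay above both WT libraries at 35 microglia members, 2 NeuN+ members and 15 Olig2+ members, where 23%, 24.1% and 26.4% of all peaks did so. They lay below at 23, 19 and 14, where 28.1%, 44.4% and 34.9% of all peaks did so.

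Scaling set part of this balance. When each library was instead scaled by its summed in-peak tags, the median of all microglia peaks moved from -0.08 to -0.28, and the members called were 10 higher and 8 lower. The share of all microglia calls that were higher in SgshKO went from 68.5% to 35.1% with it, and to 90.9% with DESeq2, which called 8 members higher and 0 lower. In NeuN+ nuclei the median of all peaks moved from -0.23 to 0.05 with this scaling and to -0.05 with cyclic loess, and the share of higher calls from 34.3% to 66.5% and 62.9%. After in-peak scaling 0 NeuN+ members rose and 2 fell, and after cyclic loess 1 rose and 0 fell. In Olig2+ nuclei the share of higher calls went from 41.2% to between 53.1% and 60.9% with median-of-ratios scaling, quantile normalization, cyclic loess, edgeR and DESeq2, and the members called were 5 higher and 6 lower after median-of-ratios scaling.

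At the start sites the sorts stood in different orders. In WT microglia Cd68, a macrophage lysosomal glycoprotein, was highest at 192 ± 5.50 tags per 100 bp of peak (SD, n = 2), followed by Scarb2 at 118 ± 19.1, Tpcn1 at 67.2 ± 6.49, Ostm1 at 61.3 ± 7.67, Grn at 45.5 ± 9.07 and Tmem175 at 41.1 ± 7.81. Tpcn1 and Ostm1 did not differ beyond their SDs, nor did Grn and Tmem175. Lamp1 was lowest, at 8.97 ± 1.54 per 100 bp. Tpcn1 was highest in both nuclei sorts, at 205 ± 2.95 in NeuN+ and 307 ± 11.8 in Olig2+ nuclei, followed by Scarb2 at 62.1 ± 1.48 and 77.3 ± 3.47. Cd68 was lowest in both, at 8.84 ± 2.30 and 2.88 ± 0.29, and in NeuN+ nuclei it overlapped Clcn7 at 8.92 ± 2.90. The Olig2+ value of Cd68 is that of a 420 bp peak centred 223 bp past its start site. That peak is annotated to the end of the neighbouring gene Eif4a1.

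**Figure D2:**
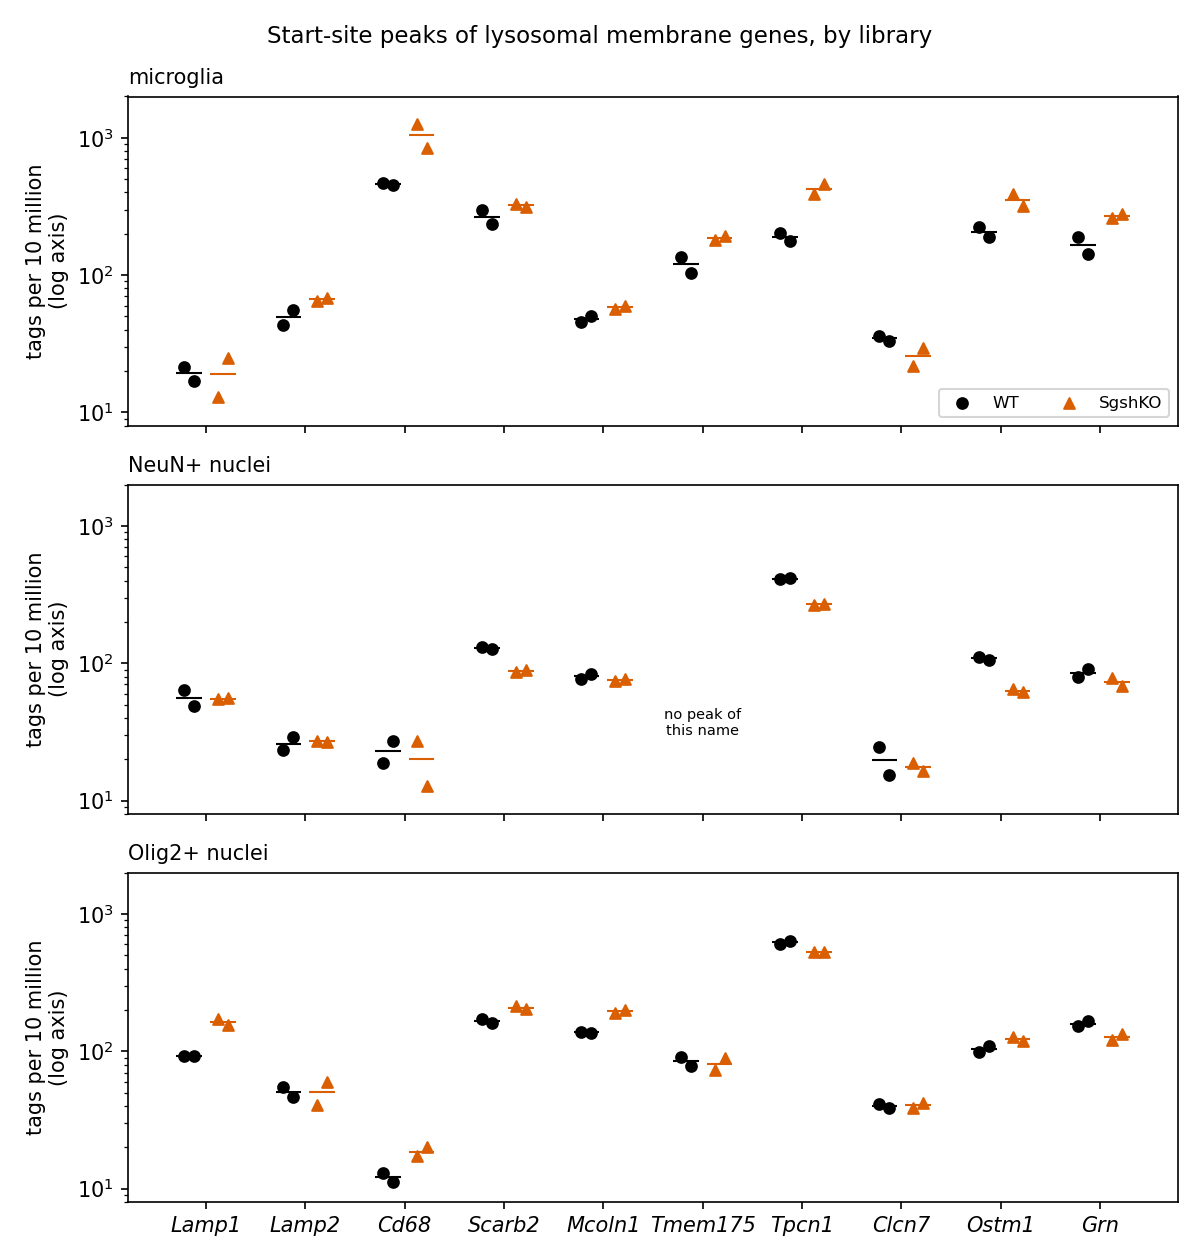
Tags per 10000000 (log axis) at the start-site peak of each gene in the 3 sorts, with 1 symbol per library, circles for WT, triangles for SgshKO and a bar at the mean of 2. The SgshKO symbols of Cd68 and Tpcn1 lie above the WT ones in microglia, and those of Tpcn1 lie below in both nuclei sorts.

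Lamp1 encodes the abundant glycoprotein of the lysosomal limiting membrane. In Olig2+ nuclei its start-site peak (chr8:13159043-13159312, promoter), which contains all 4 E-box matches, held 92.8 and 92.6 tags in WT and 172 and 155 in SgshKO. Both SgshKO libraries were above both WT libraries, a 1.76-fold rise with a log2 change of 0.81 ± 0.11 (SE; limma adjusted p = 7.83e-06). The call held under all 10 alternatives and without each of the 4 libraries. A second peak 520 bp into intron 1 fell from 21.3 and 19.9 to 9.22 and 13.3 (log2 change -0.84 ± 0.28, adjusted p = 0.0325). It was no longer called after quantile normalization (0.0598), or on leaving out WT replicate 1 (0.173), WT replicate 2 (0.126) or SgshKO replicate 1 (0.184).

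In NeuN+ nuclei the Lamp1 start-site peak (chr8:13159111-13159325) held 3 of the 4 matches and had 63.4 and 48.6 tags in WT and 54.4 and 55.9 in SgshKO, with overlapping groups (log2 change -0.01 ± 0.17, adjusted p = 0.970). In microglia none of the 4 matches lay inside a peak: the nearest one began in the 5′ UTR (chr8:13159181-13159395, 127 bp past the start site) and had 21.6 and 16.9 tags in WT and 13.0 and 25.1 in SgshKO. The highest Lamp1 peak of microglia lay 1754 bp into intron 1, with 123 and 103 tags in WT and 217 and 144 in SgshKO, a difference that was not called (log2 change 0.65 ± 0.29, adjusted p = 0.185). Farther into intron 1, the peak at 3079 bp (chr8:13162121-13162359) rose from 13.0 and 4.24 tags to 45.0 and 25.99, with no overlap (log2 change 2.04 ± 0.49, adjusted p = 0.00624). Without WT replicate 2 this was 1.34 (adjusted p = 0.614).

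Lamp2, on the X chromosome, encodes the related protein that also serves chaperone-mediated autophagy. Its start-site peak, which overlaps the promoter of the unnamed transcript LOC115489130, was not called in any sort: microglia held 43.2 and 55.9 tags in WT and 64.9 and 68.7 in SgshKO (log2 change 0.43 ± 0.34, adjusted p = 0.484). An intergenic peak at -17271 bp (upstream; chrX:38473621-38473842) rose in microglia from 46.7 and 33.0 to 79.7 and 88.2 (log2 change 1.07 ± 0.34, adjusted p = 0.0460). It was no longer called with a pseudocount of 0.5 (adjusted p = 0.0507), without WT replicate 1 (0.327) or without WT replicate 2 (0.779). At the same place in Olig2+ nuclei WT had 48.2 and 43.0 tags and SgshKO 55.3 and 59.8, which was not called (adjusted p = 0.160). A peak in intron 3, 17872 bp past the start site, fell in Olig2+ nuclei from 30.6 and 33.8 to 17.8 and 16.0 (log2 change -0.89 ± 0.23, adjusted p = 0.00695; DESeq2 0.155; without WT replicate 2, 0.0962).

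Cd68 was the most accessible start site of the list in microglia and rose further there. The peak (chr11:69666149-69666387, promoter), which spans both AP-1 matches, held 469 and 451 tags in WT and 1257 and 848 in SgshKO. Both SgshKO libraries were above both WT libraries, a 2.29-fold rise with a log2 change of 1.16 ± 0.24 (adjusted p = 0.00193). The call held under all 10 alternatives, with a smaller change after quantile normalization (0.56, adjusted p = 0.0295) and cyclic loess (0.52, 0.0399). The change was 1.19 without WT replicate 1 (adjusted p = 0.0647) and 1.14 without WT replicate 2 (0.148). The summed microglia markers overlapped between genotypes in the same libraries, with 2422 and 2120 tags for WT and 2614 and 2004 for SgshKO. Of these 8 markers 2 were higher in both SgshKO libraries and 3 were lower, and their part in the rise was not tested. Of the 6 microglia peaks assigned to Cd68, all 6 had a log2 change above 0. The one at -2769 bp, inside an intron of the neighbouring gene Eif4a1, rose from 7.78 and 8.47 to 25.97 and 22.3 (log2 change 1.46 ± 0.46, adjusted p = 0.0456). It was not called by DESeq2 (adjusted p = 0.142) or without WT replicate 1 (0.494) or 2 (0.575).

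The Cd68 start-site peak of NeuN+ nuclei held 18.7 and 27.1 tags in WT and 27.2 and 12.7 in SgshKO, with overlapping groups. In Olig2+ nuclei no peak covered either AP-1 match. The nearest one, 223 bp past the start site, had 13.0 and 11.3 against 17.2 and 19.9 tags and was not called (adjusted p = 0.133). An exon 2 peak at 548 bp rose from 5.71 and 6.14 to 11.1 and 15.3 (log2 change 1.02 ± 0.33, adjusted p = 0.0288; not called without WT replicate 1, with 0.13, without WT replicate 2, with 0.101, or without SgshKO replicate 2, with 0.148). Microglia markers had a start-site peak for 2 of 8 genes in Olig2+ nuclei, with sums of 240 and 233 tags in WT and 271 and 284 in SgshKO, and their part in this rise was not tested.

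Scarb2 encodes LIMP-2, the membrane protein that carries glucocerebrosidase to lysosomes. At its start site the 2 nuclei sorts moved in opposite directions. NeuN+ nuclei (chr5:92505528-92505735) fell from 131 and 127 to 86.6 and 89.5 tags (log2 change -0.55 ± 0.12, adjusted p = 0.00220). Olig2+ nuclei (chr5:92505525-92505740) rose from 172 and 162 to 215 and 202 (log2 change 0.32 ± 0.10, adjusted p = 0.0182). Neither pair of groups overlapped.

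The Scarb2 fall in NeuN+ nuclei was -0.33 both with edgeR (adjusted p = 0.0293) and with median-of-ratios scaling (0.0360). It was not called by DESeq2 (-0.34, 0.363) or after in-peak scaling (-0.25, 0.103), and was -0.02 after cyclic loess and 0.01 after quantile normalization, while the median over all NeuN+ peaks within 1000 bp of a start site was -0.53 as deposited. The rise in Olig2+ nuclei kept its direction throughout but was not called by DESeq2 (adjusted p = 0.0577) or without WT replicate 1 (0.0690), WT replicate 2 (0.172) or SgshKO replicate 1 (0.0817). In microglia the start site had 296 and 236 tags in WT and 330 and 314 in SgshKO and was not called (log2 change 0.28 ± 0.26, adjusted p = 0.568), and quantile normalization and cyclic loess gave -0.175 and -0.13. A peak 18741 bp into intron 1 (chr5:92486790-92487042) rose in microglia from 19.9 and 26.3 to 66.7 and 53.9 (log2 change 1.35 ± 0.38, adjusted p = 0.0209). It was called under all 10 alternatives, but not without WT replicate 1 (adjusted p = 0.509) or 2 (0.349).

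Mcoln1 encodes TRPML1, the main calcium-release channel of lysosomes. Its start-site peak, which contained both E-box matches in every sort, rose in Olig2+ nuclei (chr8:3500305-3500573) from 138 and 137 to 191 and 201.4 tags, with no overlap. The log2 change was 0.51 ± 0.10 (adjusted p = 0.000514), and it was called under all 10 alternatives and without each library. In NeuN+ nuclei WT had 77.0 and 83.6 tags and SgshKO 74.0 and 76.2 (log2 change -0.09 ± 0.13, adjusted p = 0.610), and cyclic loess gave a rise of 0.39 that was called (0.0446). In microglia, where it was the only Mcoln1 peak, WT had 45.8 and 50.8 and SgshKO 57.1 and 59.4 (log2 change 0.27 ± 0.34, adjusted p = 0.699).

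Tmem175 encodes a lysosomal potassium and proton channel and shares its start-site region with Gak, which is transcribed the other way. The peak therefore cannot be given to 1 of the 2 genes. In microglia it had 137 and 104 tags in WT and 179 and 192 in SgshKO, with no overlap (log2 change 0.63 ± 0.29, adjusted p = 0.182; called by edgeR, with 0.0382, and with the replicate number as a block, with 0.0385). In Olig2+ nuclei it had 90.3 and 78.8 against 72.6 and 89.1, with overlap. NeuN+ nuclei had 0 peaks named Tmem175. The peak at that place carried the name Gak there (chr5:108629631-108629907) and fell from 73.6 and 53.1 to 37.7 and 40.6 (log2 change -0.66 ± 0.18, adjusted p = 0.0105).

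Tpcn1 encodes a two-pore channel of endosomes and lysosomes that conducts sodium and calcium. Its start-site peak rose in microglia and fell in both nuclei sorts. In microglia (chr5:120588571-120588854) it held 204 and 178 tags in WT and 390 and 462 in SgshKO, a 2.23-fold rise (log2 change 1.15 ± 0.26, adjusted p = 0.00416). In NeuN+ nuclei (chr5:120588655-120588855) it went from 408 and 416 to 267 and 270 (log2 change -0.61 ± 0.07, adjusted p = 9.17e-06). In Olig2+ nuclei (chr5:120588653-120588855) it went from 607 and 641 to 531 and 526 (log2 change -0.24 ± 0.06, adjusted p = 0.00386).

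The Tpcn1 groups did not overlap in any of the 3 sorts. The rise in microglia was called under all 10 alternatives, at 0.72 after quantile normalization (adjusted p = 0.0200) and 0.74 after cyclic loess (0.0242). Without WT replicate 1 it was 1.25 (adjusted p = 0.129) and without WT replicate 2 it was 1.05 (0.417). The fall in NeuN+ nuclei was -0.32 after in-peak scaling (adjusted p = 0.000930) and -0.40 with median-of-ratios scaling, edgeR and DESeq2. It was not called after quantile normalization (-0.07, adjusted p = 0.473) and turned to 0.09 after cyclic loess (0.326). The fall in Olig2+ nuclei was called in 9 of 10 alternatives, not by DESeq2 (adjusted p = 0.219), nor without WT replicate 2 (0.0864).

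Microglia held 18 peaks assigned to Tpcn1, NeuN+ nuclei 8 and Olig2+ nuclei 9, those at the start site included. The highest in microglia was in intron 3, 29707 bp past the start site (chr5:120558789-120559024), with 580 and 515 tags in WT and 681 and 500 in SgshKO. Those groups overlapped, and the log2 change of 0.10 ± 0.25 (adjusted p = 0.866) turned to -0.52 after quantile normalization and -0.50 after cyclic loess, both called (0.0343 and 0.0432). In NeuN+ nuclei a peak in intron 10 at 37772 bp fell from 41.4 and 32.2 to 16.8 and 24.8 (log2 change -0.81 ± 0.23, adjusted p = 0.0141; not called under 5 of 10 alternatives, nor without WT replicate 1, with 0.195). In Olig2+ nuclei a peak in intron 1 at 1682 bp fell from 19.7 and 23.5 to 11.1 and 12.0 (log2 change -0.85 ± 0.27, adjusted p = 0.0252; not called without WT replicate 1, with 0.0766, WT replicate 2, with 0.198, or SgshKO replicate 1, with 0.0616).

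**Figure D3:**
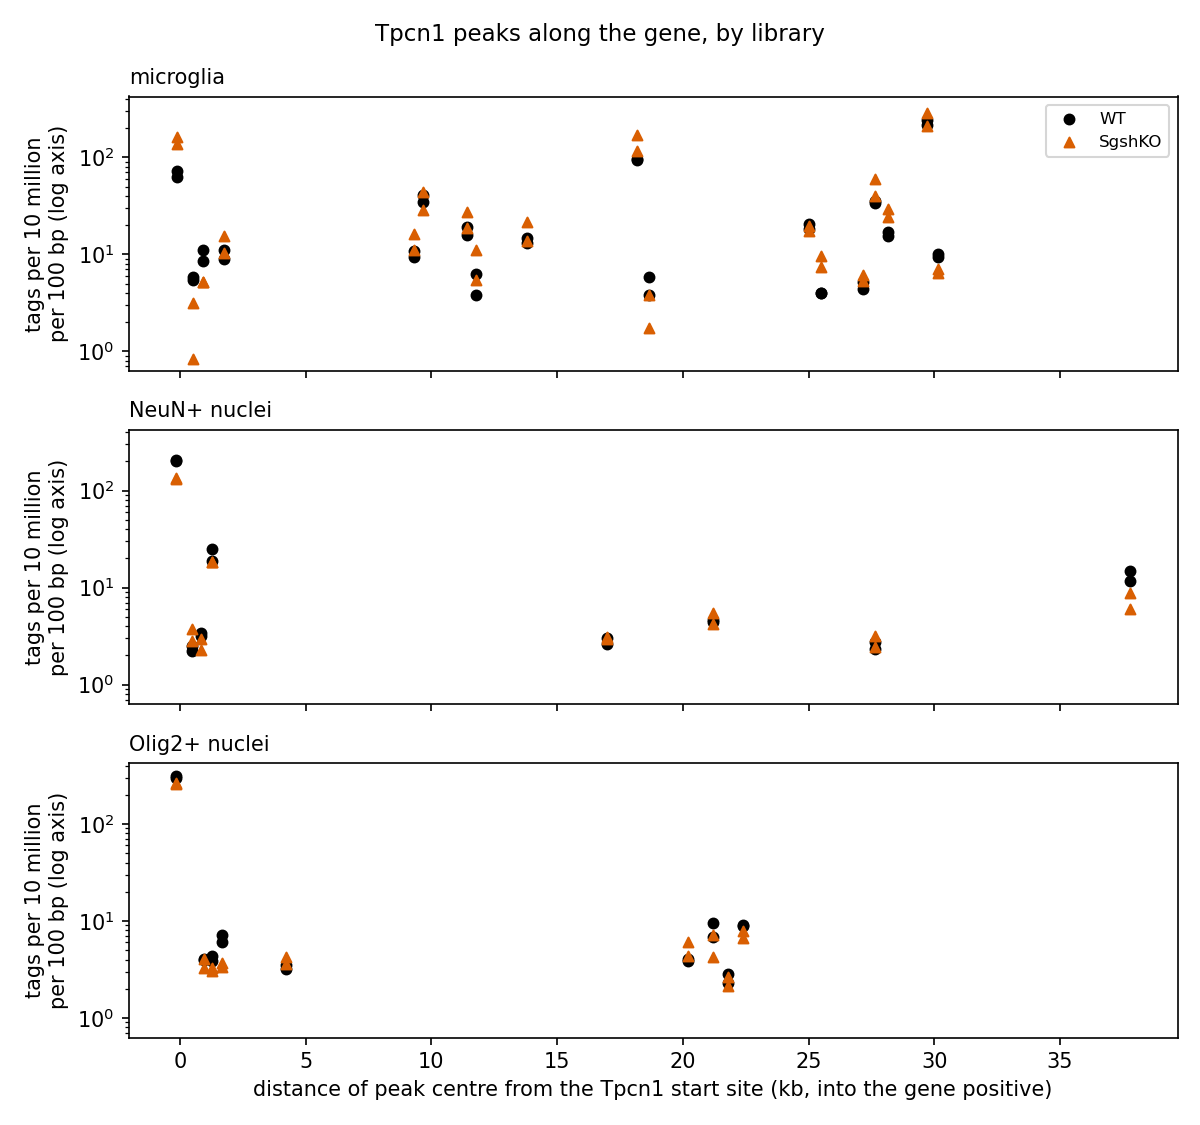
Tags per 10000000 per 100 bp of peak (log axis) at every Tpcn1 peak against the distance of its centre from the start site in kb, with 1 symbol per library. The microglia panel has 18 peaks, with its highest values at the intron 3 peak, and the highest values of both nuclei sorts are at the start site.

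Clcn7 encodes the chloride-proton exchanger of the lysosomal membrane, and Ostm1 its obligatory subunit. The Clcn7 start-site peak, which contains both E-box matches in every sort, was called in none. It had 36.3 and 33.0 tags in WT and 21.6 and 29.7 in SgshKO in microglia (log2 change -0.43 ± 0.40, adjusted p = 0.564), 24.4 and 15.3 against 18.9 and 16.5 in NeuN+ nuclei, and 41.0 and 38.4 against 38.7 and 41.9 in Olig2+ nuclei. The groups overlapped in both nuclei sorts and not in microglia.

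The largest changes of any member lay downstream of the second Clcn7 promoter, in its intron 1, at microglia peaks with at most 5.08 tags in WT. Peaks were merged per sort, so peaks this low in WT may have entered the set only through SgshKO, where they are high. How far this bears on the size of their changes was not tested. In microglia the peak at 2311 bp (chr17:25138833-25139051) rose from 4.32 and 3.39 to 32.9 and 18.6 tags (log2 change 2.41 ± 0.50, adjusted p = 0.00169). The peak at 3930 bp (chr17:25140460-25140662) rose from 1.73 and 5.08 to 24.2 and 15.8 (log2 change 2.34 ± 0.53, adjusted p = 0.00395). Both were called in all 9 alternatives that could test them. Without WT replicate 2 the former was 2.27 (adjusted p = 0.139), and without WT replicate 1 the latter was 1.76 (0.336). The second promoter itself had 6.91 and 6.78 tags in WT and 19.9 and 15.8 in SgshKO, without overlap but not called (adjusted p = 0.108). An intergenic peak at -6196 bp from the main start site fell in Olig2+ nuclei from 103 and 129 to 79.9 and 72.5 (log2 change -0.60 ± 0.14, adjusted p = 0.00232; DESeq2 0.0717; without WT replicate 2, 0.139).

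The Ostm1 start-site peak held 226 and 189 tags in WT microglia and 388 and 319 in SgshKO. The groups did not overlap, and the log2 change of 0.77 ± 0.26 was just short of the threshold (adjusted p = 0.0682). It was called in 5 of 10 alternatives, with 0.00768 after median-of-ratios scaling, 0.00561 with edgeR and 0.00291 with the replicate block. In NeuN+ nuclei (chr10:42678753-42679002) it fell from 112 and 105 to 64.9 and 61.6 (log2 change -0.77 ± 0.13, adjusted p = 0.000389), and by less after in-peak scaling (-0.47, 0.00833). It was not called after quantile normalization (-0.26, adjusted p = 0.135) or cyclic loess (-0.28, 0.116), nor by DESeq2 (-0.56, 0.110). In Olig2+ nuclei it had 98.6 and 109 against 127 and 118 (adjusted p = 0.151). Microglia also held a cluster of 9 intergenic Ostm1 peaks 41.6 to 47.1 kb upstream, with summed tags of 212 and 211 for WT and of 147 and 137 for SgshKO. At 7 of the 9, both SgshKO libraries were below both WT libraries, as at 28.1% of all microglia peaks, and none was called (lowest adjusted p 0.0856, with 4 at an unadjusted p under 0.05).

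Grn encodes progranulin, a precursor that is cut into granulins inside lysosomes. At its start site in microglia (chr11:102430118-102430483) there were 190 and 143 tags in WT and 261 and 279 in SgshKO. The groups did not overlap and the difference was not called (log2 change 0.71 ± 0.27, adjusted p = 0.108), though it was with median-of-ratios scaling (0.0272), edgeR (0.0179) and the replicate block (0.0102). In Olig2+ nuclei (chr11:102430280-102430530) it fell from 152 and 165 to 121 and 133 (log2 change -0.32 ± 0.11, adjusted p = 0.0357). It was not called after median-of-ratios scaling (0.0865), by edgeR (0.0667) or DESeq2 (0.362), or without WT replicate 1 (0.105), WT replicate 2 (0.281) or SgshKO replicate 1 (0.152). In NeuN+ nuclei it had 79.3 and 90.4 against 77.5 and 68.6 (adjusted p = 0.248).

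Of the 7 Olig2+ peaks assigned to Grn, 4 fell, and of the 11 NeuN+ ones 2 fell, where 11.7% and 19.6% of all peaks of those sorts fell. The largest fall was at exon 2 in Olig2+ nuclei, 2756 bp past the start site, from 15.6 and 13.8 to 1.84 and 7.98 (log2 change -1.63 ± 0.40, adjusted p = 0.00435; -1.06 with a pseudocount of 5; not called without WT replicate 1, with 0.0949, WT replicate 2, with 0.0587, or SgshKO replicate 1, with -0.80 and 0.109). The NeuN+ peak at the end of the gene (7432 bp) fell from 52.7 and 41.2 to 30.7 and 23.5 (log2 change -0.77 ± 0.20, adjusted p = 0.00887), and one at 6253 bp, at the end of Fam171a2, from 22.1 and 15.3 to 9.07 and 10.8 (-0.83 ± 0.28, adjusted p = 0.0349). Neither was called after in-peak scaling (-0.48 and -0.55; adjusted p = 0.0738 and 0.157), quantile normalization (0.102 and 0.0885) or cyclic loess (-0.46 and -0.73; 0.102 and 0.0715), by DESeq2 (0.379 and 0.561) or without WT replicate 1 (0.166 and 0.291). The second was also not called after median-of-ratios scaling (0.108), by edgeR (0.104) or without WT replicate 2 (0.0522). The highest Grn peak of microglia, in intron 1 at 1878 bp (chr11:102432096-102432304), had 385 and 306 tags in WT and 458 and 341 in SgshKO, with overlap (log2 change 0.20 ± 0.26, adjusted p = 0.698).

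Many of these calls changed when 1 library was left out, which leaves 1 library in a group and a less certain estimate of spread. The log2 change could move little, as at the Cd68 start site in microglia (1.19 and 1.14 without WT replicates 1 and 2, against 1.16). Others moved more, as at the Lamp1 peak at 3079 bp (1.34 without WT replicate 2, against 2.04). Of the 8 microglia calls, 2 were made without WT replicate 1 and 1 without WT replicate 2, against 17 and 24 calls without SgshKO replicate 1 and 2. With edgeR, leaving out the 2 WT libraries in turn gave 6 and 5 calls. Leaving out either SgshKO library of NeuN+ nuclei left 0 of all peaks with an adjusted p under 0.05 in limma (33265 and 32556 at an unadjusted p under 0.05), so 0 members, while edgeR called 3 members each time. In Olig2+ nuclei 5, 2, 8 and 13 were called without WT replicates 1 and 2 and SgshKO replicates 1 and 2.

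How the WT sorts differed, and whether the genotype effect differed between them, was tested on 16761 peaks that matched one-to-one in the 3 tables with a reciprocal overlap of 50%. Of the members 14 such peaks of 8 genes were present, 8 of them start sites, while Cd68 and Lamp1 had none. Of the member peaks more than 1000 bp from a start site, 54 of 67 in microglia (80.6%), 10 of 20 in NeuN+ (50%) and 9 of 23 in Olig2+ nuclei (39.1%) overlapped no peak of another sort, where 72%, 70.9% and 62.9% of all such peaks did not. Microglia were live cells and the others fixed nuclei, so sort and preparation cannot be told apart.

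In WT, the start sites of Tpcn1 and Mcoln1 were less accessible in microglia than in either nuclei sort. For Tpcn1 the log2 difference was -1.11 ± 0.12 against NeuN+ (adjusted p = 3.41e-08) and -1.71 ± 0.12 against Olig2+ nuclei (2.81e-11). For Mcoln1 it was -0.72 ± 0.16 (0.000337) and -1.49 ± 0.16 (1.84e-08). These 4 differences were called under all 6 alternatives, and those against NeuN+ nuclei were -2.09 for Tpcn1 and -1.69 for Mcoln1 after in-peak scaling, with -1.40 for Mcoln1 after quantile normalization. The other 12 shared peaks were higher in microglia than in NeuN+ nuclei, so that 14 of 14 were called, where 65.8% of all shared peaks were.

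That direction rested on the scaling, since in-peak scaling moved the median of all shared peaks from 0.47 to -0.49 and left 3 member calls. Of the 12, the Scarb2 intron 1 peak at 897 bp was then the one still called higher (0.92, adjusted p = 0.00261, against 1.86 ± 0.26 as deposited, 1.76e-06), and the start sites of Ostm1, Grn, Clcn7, Tmem175 and Lamp2 turned to between -0.02 and -0.14.

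Against Olig2+ nuclei 9 of 14 were called, 7 higher in microglia and 2 lower (67.2% of all shared peaks). Of 3 Grn peaks in the gene body, that in intron 1 at 914 bp was 1.93 ± 0.24 higher (adjusted p = 3.05e-07) and that at the gene end (7380 bp) 2.15 ± 0.23 higher (2.28e-08). Both were called under all 6 alternatives, the former at 1.24 after in-peak scaling (0.000143). The third, at 4237 bp, was 1.04 ± 0.25 higher (0.000789) and was not called after in-peak scaling (0.35, 0.198) or quantile normalization (0.52, 0.0557). The Grn start site was level (0.06 ± 0.16, adjusted p = 0.756) and turned to -0.65 after in-peak scaling, which was called (0.00150). The Ostm1 and Scarb2 start sites were 0.99 ± 0.15 and 0.66 ± 0.14 higher in microglia (4.13e-06 and 0.000207) and neither was called after in-peak scaling (0.28 for Ostm1 and -0.05 for Scarb2). Per 100 bp of peak the Ostm1 difference was 0.57 (0.00229). The balance of this contrast also rested on the scaling. In-peak scaling moved the median of all shared peaks from 0.35 to -0.34, with 3998 called higher in microglia and 7328 lower. As deposited these were 7159 and 4112. After in-peak scaling the Clcn7 and Lamp2 start sites were called lower (-0.88 and -0.74, adjusted p = 0.00714 and 0.0111). So were the Scarb2 peak at 897 bp (-0.59, 0.0394) and the Lamp2 peak at 17894 bp (-0.67, 0.0366).

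Between the nuclei sorts 9 of 14 member peaks were called (49.5% of all shared peaks), 8 of them lower in NeuN+ nuclei. They included the start sites of Grn (-0.90 ± 0.16, adjusted p = 5.34e-05), Mcoln1 (-0.77 ± 0.16, 0.000304; -0.50 after in-peak scaling), Lamp2 (-0.94 ± 0.23, 0.00181) and Clcn7 (-1.002 ± 0.27, 0.00365), of which the last was lost without NeuN+ WT replicate 2 (0.0992) and with the replicate block (0.0517). The Scarb2 intron 1 peak was lower by the most (-1.76 ± 0.26, 7.79e-06). As deposited, the Grn peak at the gene end was the one that was higher in NeuN+ nuclei (1.23 ± 0.23, 0.000119). In-peak scaling moved the median of all shared peaks from -0.15 to 0.12. The Ostm1 start site (0.335, adjusted p = 0.0477) and the Grn peaks at 914 bp (0.71, 0.0192) and 4237 bp (0.67, 0.0232) were then called higher too. The Tpcn1 and Scarb2 start sites and the Lamp2 peak at 17894 bp were no longer called (0.0817, 0.595 and 0.152). The start sites of Grn, Mcoln1, Lamp2 and Clcn7 and the Scarb2 intron 1 peak stayed lower.

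The genotype effect differed between sorts most clearly at Tpcn1. Its start site had a change in microglia that exceeded that in NeuN+ nuclei by 1.77 ± 0.17 (limma interaction contrast, adjusted p = 1.95e-08) and that in Olig2+ nuclei by 1.39 ± 0.17 (3.23e-06). Both contrasts were called under all 6 alternatives and without each of the 12 libraries, but quantile normalization brought them to 0.56 (adjusted p = 0.0103) and 0.79 (0.000821). Between the nuclei sorts the difference was -0.38 ± 0.17 and was not called (0.0975).

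**Figure D4:**
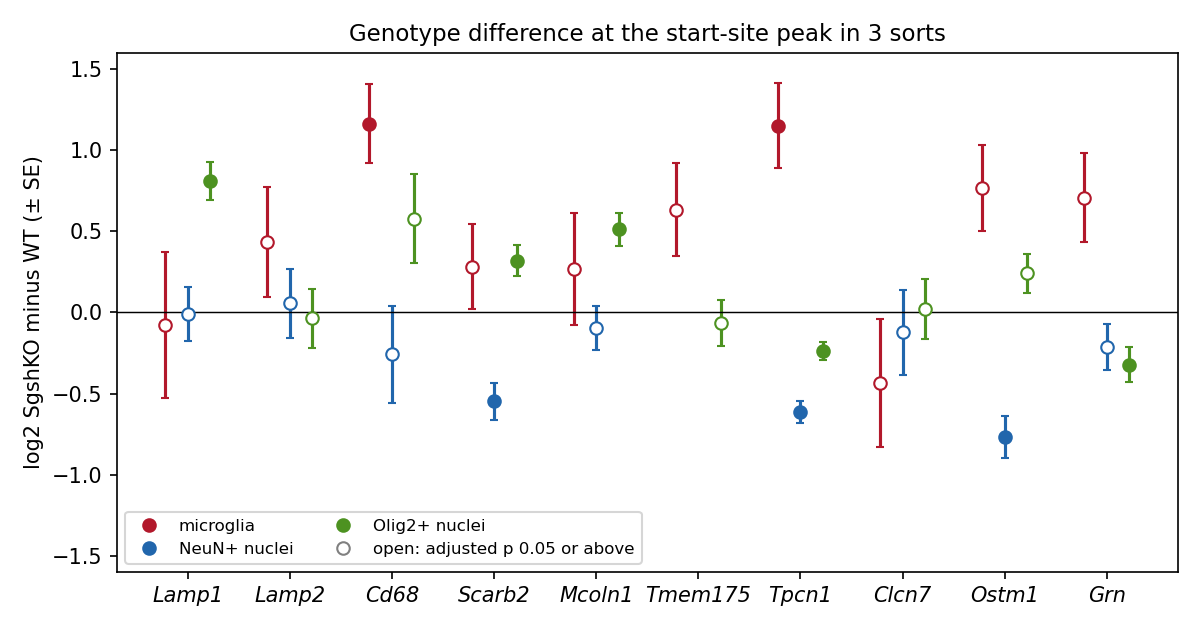
Log2 change (SgshKO minus WT) of the start-site peak of each gene in the 3 sorts, with the standard error of limma as bars and filled symbols for an adjusted p under 0.05. Tpcn1 is at 1.15 in microglia and below 0 in both nuclei sorts, and Lamp1 and Mcoln1 are filled in Olig2+ nuclei; for Mcoln1 the difference from NeuN+ nuclei was called and that from microglia was not.

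In the contrast of microglia with NeuN+ nuclei 6 of 14 member peaks were called, all with the larger value in microglia (42.5% of all shared peaks). The median of the members was 0.39 and that of all shared peaks 0.60, so the members did not exceed the general difference between these sorts. Beside Tpcn1 these were the start sites of Ostm1 (1.53 ± 0.21, adjusted p = 2.93e-06), Tmem175 with Gak (1.30 ± 0.27, 0.000338), Grn (0.92 ± 0.22, 0.00157) and Scarb2 (0.83 ± 0.20, 0.00126), and the Grn peak at the gene end. After quantile normalization, which brought the median of all shared peaks to -0.03, the Tpcn1 contrast alone was called, and those of Grn and Scarb2 turned to -0.22 and -0.39. After in-peak scaling the calls were those of Tpcn1, Ostm1 and Tmem175 (0.80 for the last).

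Against Olig2+ nuclei 2 of 14 were called, Tpcn1 and the Grn start site (1.03 ± 0.22, adjusted p = 0.00155; 0.50, with 0.0952, after quantile normalization), where 21.6% of all shared peaks were and the medians were 0.20 for members and 0.17 for all. On leaving out microglia WT replicate 1 the count was 4. Between NeuN+ and Olig2+ nuclei 4 of 14 were called (31.7% of all shared peaks), all with the lower change in NeuN+ nuclei, beside medians of -0.22 for members and -0.50 for all. They were the start sites of Ostm1 (-1.01 ± 0.21, 0.00135), Scarb2 (-0.87 ± 0.20, 0.00218) and Mcoln1 (-0.61 ± 0.22, 0.0401) and the Grn peak at the gene end (-1.41 ± 0.33, 0.00257). None of these 4 was called after quantile normalization (-0.38, -0.19, 0.12 and -0.97 in that order). The Mcoln1 contrast was also lost after in-peak scaling (-0.33, 0.351) and when any of the 8 nuclei libraries was left out. The contrasts share libraries, so they are not independent of each other.

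A wider list of 46 genes for other lysosomal membrane proteins, transporters and partners was counted beside the members. In microglia 15 of its 321 peaks rose and 4 fell, in NeuN+ nuclei 15 of 201 rose and 48 fell, and in Olig2+ nuclei 19 of 254 rose and 41 fell. The shares called were 5.92%, 31.3% and 23.6% in that order, beside 7.37%, 29.8% and 19.8% of all peaks. In microglia the start site of Abcb9, a lysosomal peptide transporter, rose from 49.3 and 38.1 to 151 and 233 tags (log2 change 2.09 ± 0.32, adjusted p = 3.38e-05), and that of Slc29a3, a lysosomal nucleoside transporter, from 191 and 217 to 420 and 522 (1.20 ± 0.26, 0.00268). The Abcb9 call held without each library, and that of Slc29a3 was 0.74 after quantile normalization and 0.77 after cyclic loess and was lost without WT replicate 1 (0.216) or 2 (0.164). The falls of smallest p were at intergenic Psap and gene-end Slc36a1 peaks of at most 17.8 tags (-2.20 ± 0.53 and -1.97 ± 0.56, 0.00655 and 0.0248). With a pseudocount of 5 these were -1.46 and -1.13. Neither was called after cyclic loess (0.0643 and 0.268), nor without WT replicate 1 (0.340 and 0.538) or 2 (0.568 and 0.766).

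In NeuN+ nuclei the start sites of Mfsd12, which is needed for cysteine import into lysosomes and melanosomes, and of Clcn3, an endosomal chloride-proton exchanger, fell from 200.0 and 197 to 92.1 and 83.8 (-1.17 ± 0.11, adjusted p = 1.40e-06) and from 245 and 217 to 113 and 115 (-1.01 ± 0.10, 2.58e-06). Both were called under all 10 alternatives, Mfsd12 at -0.61 and Clcn3 at -0.44 after quantile normalization, and near those values after cyclic loess. The rises of smallest p were at distal peaks given to Slc15a4 and Lamp5, at 130483 and 117462 bp from their start sites and inside Tmem132c and Pak7. They went from 2.27 and 2.26 to 11.17 and 14.6 tags and from 4.53 and 2.82 to 18.15 and 13.33. Peaks this low in WT may have entered the merged set only through SgshKO. In Olig2+ nuclei the start site of Cd63, a tetraspanin of late endosomes, rose from 158 and 119 to 227 and 232 (0.74 ± 0.11, 1.42e-05) and an upstream Tmem192 peak from 20.8 and 31.2 to 58.4 and 65.8 (1.25 ± 0.20, 4.08e-05). An intron 1 peak of Abca2, a lipid transporter abundant in oligodendrocytes, fell from 627 and 576 to 300.0 and 297 (-1.01 ± 0.07, 3.18e-12), and one of Laptm5 from 27.5 and 29.2 to 7.38 and 5.98 (-1.94 ± 0.28, 1.18e-05). These 4 Olig2+ calls held under all 10 alternatives and without each library.

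The start-site peaks whose values over the 12 libraries were most like those of Grn, among 10516 shared start-site peaks of other genes, were those of Zbtb3 (Pearson r = 0.986), Bysl (0.982) and Yif1a (0.981). These correlations include the differences between sorts that all 12 libraries carry, and are given as a description.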

How the data were processed

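Per the submitters' processing notes, Bowtie2 and HOMER were used with mm10; duplicate handling and read shifting: not given in the sources used here. For each sort the authors deposited 1 table of merged peaks, so that a peak low in 1 genotype may have entered it through the other. The deposited signal is tags per peak scaled, per the file headers, to 10000000 tags per library, and the deposited Peak Score, a score of 540 to 1000, entered no test. Multiplying by the header totals gave whole reads for 100% of values (tolerance 0.01), used for edgeR 4.0.16 and DESeq2 1.42.0. All value columns matched a sample, with 0 left over.

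Log2(tags + 1) was compared with limma 3.58.1 in R 4.3.3 (intensity trend, two-sided, no covariate, no filter), per table for genotype and over 12 libraries and 6 groups for sorts. Each ± is an SE, or an SD where stated. Microglia libraries held 10771659 to 11804222 tags and a median of 27 to 39 reads per peak, and nuclei libraries 14326703 to 19555924 tags and 17 to 30 reads.

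Named were each member's start-site peak (within 1000 bp), called member peaks (the 6 of smallest p per direction where over 12), the highest distal microglia peak of each member, the 2 smallest-p called peaks per direction of the wider list, and the called contrasts between sorts. The Ostm1 cluster, the second Clcn7 promoter, the Gak peak, the upstream Lamp2 peak of Olig2+ nuclei and the WT contrasts described were picked after their values were seen. Members and lists were chosen with earlier results of these data known. As alternatives, other pseudocounts (0.5, 5), a filter that dropped the lowest 25% of peaks, other scalings, edgeR, DESeq2, a replicate block, values per 100 bp, a 1 bp overlap and the omission of each library were run; cyclic loess and edgeR without each library were added after seeing the data. 1 oligodendrocyte marker is not reported here and entered no sum. Fits were tested on simulated data.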

Additional observations from a re-analysis of the deposited data

Results flagged for a closer look

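The genotype effect differed between sorts by limma's test of the difference itself at 12 combinations of peak and sort pair. With the change in microglia minus that in NeuN+ nuclei, the differences were 1.765 at the Tpcn1 start site, 1.533 at Ostm1, 1.296 at Tmem175 with Gak, 0.922 at Grn, 0.832 at Scarb2 and 0.825 at the Grn peak 7380 bp past the start site. The last was lost without 1 of 6 libraries in turn, with adjusted p from 0.0516 to 0.198.

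With microglia minus Olig2+ nuclei they were 1.39 at Tpcn1 and 1.03 at Grn. With NeuN+ minus Olig2+ nuclei they were -1.411 at the Grn peak at the gene end, -1.009 at Ostm1, -0.867 at Scarb2 and -0.607 at Mcoln1. The general difference of each pair was 0.60, 0.17 and -0.50 over all shared peaks, and only the 2 Tpcn1 contrasts were called under every alternative run, at 0.56 and 0.79 after quantile normalization.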

How the results depend on the processing

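Counts of called members moved with the processing. In microglia the 8 calls became 5 with the lowest 25% of peaks left out, 18 with in-peak scaling, 16 with median-of-ratios scaling, 13 with quantile normalization, 21 with edgeR, 14 with cyclic loess and 20 with the replicate block. The filter itself removed the called peaks of Clcn7 at 2311 and 3930 bp and of Cd68 at -2769 bp. In NeuN+ nuclei the 6 calls became 2 with in-peak scaling, 0 with quantile normalization (8 at an unadjusted p under 0.05), 1 with DESeq2 and 1, higher, with cyclic loess. In Olig2+ nuclei the 13 became 2 with DESeq2, which gave an adjusted p to 36149 of the 82577 peaks there. Some called members had no such value, among them Lamp1 at 520 bp and Tpcn1 at 1682 bp. For those the missing call is not a test result. Of WT microglia against NeuN+ nuclei 3 were called with in-peak scaling and 9 with quantile normalization, where the other alternatives stayed within 1.5 times. The genotype effect differed between these sorts at 3 peaks with in-peak scaling and 1 with quantile normalization, and between NeuN+ and Olig2+ nuclei at 1, with the opposite sign, with quantile normalization. Leaving out 1 library gave 1 to 24 calls in microglia, 0 to 5 in NeuN+ and 2 to 13 in Olig2+ nuclei by limma, and 5 to 30 (23 without SgshKO replicate 1), 2 to 3 and 5 to 8 by edgeR, with 2 to 4 for the genotype effect in microglia against Olig2+ nuclei. Where 1 library of a group was left, it was assumed to vary like the others. Apart from peaks that a filter removed or DESeq2 left without a value, the cause of these shifts was not tested.

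Values that changed sign are log2 differences, named by gene and distance from the start site in bp. For the microglia genotype change, quantile normalization turned Lamp1 at 127 to 0.074, Scarb2 at -19 to -0.175, Tpcn1 at 29707 to -0.518 and Grn at 1878 to -0.322. For the microglia genotype change, edgeR turned Lamp1 at 127 to 0.046. For the microglia genotype change, DESeq2 turned Lamp1 at 127 to 0.098. For the microglia genotype change, cyclic loess turned Lamp1 at 127 to 0.072, Scarb2 at -19 to -0.133, Tpcn1 at 29707 to -0.497 and Grn at 1878 to -0.276. For the microglia genotype change, in-peak scaling turned Scarb2 at 1206 to -0.009, Tpcn1 at 29707 to -0.112 and Grn at 1878 to -0.005. For the NeuN+ genotype change, in-peak scaling turned Lamp1 at 57 to 0.285, Cd68 at -108 to 0.026, Mcoln1 at -85 to 0.201, Clcn7 at -2 to 0.161 and Grn at 86 to 0.082. For the NeuN+ genotype change, median-of-ratios scaling turned Lamp1 at 57 to 0.204, Mcoln1 at -85 to 0.119, Clcn7 at -2 to 0.083 and Grn at 86 to 0.001. For the NeuN+ genotype change, quantile normalization turned Lamp1 at 57 to 0.396, Scarb2 at 26 to 0.007, Mcoln1 at -85 to 0.409 and Grn at 86 to 0.287. For the NeuN+ genotype change, edgeR turned Lamp1 at 57 to 0.199, Mcoln1 at -85 to 0.123 and Clcn7 at -2 to 0.052. For the NeuN+ genotype change, DESeq2 turned Lamp1 at 57 to 0.197, Cd68 at -108 to 0.006, Mcoln1 at -85 to 0.12 and Clcn7 at -2 to 0.053. For the NeuN+ genotype change, cyclic loess turned Lamp1 at 57 to 0.415, Mcoln1 at -85 to 0.385, Clcn7 at -2 to 0.019, Tpcn1 at -142 to 0.089 and Grn at 86 to 0.268. For the Olig2+ genotype change, median-of-ratios scaling turned Lamp2 at -30 to 0.03. For the Olig2+ genotype change, quantile normalization turned Lamp2 at -30 to 0.019. For the Olig2+ genotype change, edgeR turned Lamp2 at -30 to 0.042. For the Olig2+ genotype change, DESeq2 turned Lamp2 at -30 to 0.047 and Tmem175 at -15 to 0.001. For the Olig2+ genotype change, cyclic loess turned Lamp2 at -30 to 0.006. For WT microglia minus NeuN+, in-peak scaling turned Ostm1 at -41 to -0.054, Grn at -22 to -0.022, Grn at 4237 to -0.322, Grn at 7380 to -0.046, Clcn7 at -22 to -0.136, Tmem175 at 27 to -0.053, Lamp2 at 17894 to -0.19 and Lamp2 at -16 to -0.057. For WT microglia minus Olig2+, in-peak scaling turned Grn at -22 to -0.649, Scarb2 at 897 to -0.59, Scarb2 at -19 to -0.048, Tmem175 at 27 to -0.209 and Lamp2 at 17894 to -0.672. For WT microglia minus Olig2+, values per 100 bp turned Grn at -22 to -0.476. For WT microglia minus Olig2+, quantile normalization turned Scarb2 at 897 to -0.455 and Lamp2 at 17894 to -0.641. For the genotype effect in microglia minus NeuN+, quantile normalization turned Grn at -22 to -0.224 and Scarb2 at -19 to -0.393. For the genotype effect in NeuN+ minus Olig2+, quantile normalization turned Mcoln1 at 8 to 0.115.

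Without 1 library each, the sign turned in microglia for Lamp1 at 127 (-0.526 to 0.372), Cd68 at 1403 (-0.153 to 1.138), Scarb2 at 1206 (-0.086 to 0.478), Tmem175 at 6552 (-0.391 to 0.977), Tpcn1 at 29707 (-0.127 to 0.318) and Grn at 1878 (-0.011 to 0.415). Without 1 library each, the sign turned in NeuN+ nuclei for Lamp1 at 57 (-0.199 to 0.18), Lamp2 at -41 (-0.093 to 0.206), Cd68 at -108 (-0.78 to 0.262) and Clcn7 at -2 (-0.444 to 0.198). Without 1 library each, the sign turned in Olig2+ nuclei for Lamp2 at -30 (-0.311 to 0.238), Tmem175 at -15 (-0.214 to 0.078) and Clcn7 at -26 (-0.033 to 0.077). Among WT contrasts it turned for Grn at -22 in microglia minus Olig2+ nuclei (-0.145 to 0.262), Lamp2 at 17894 in microglia minus Olig2+ nuclei (-0.052 to 0.085), Lamp2 at -16 in microglia minus Olig2+ nuclei (-0.223 to 0.142) and Ostm1 at -41 in NeuN+ nuclei minus Olig2+ nuclei (-0.009 to 0.134).

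The replicate block rests on replicate numbers that no label says pair the libraries. The correlation of deviations between WT and SgshKO libraries of the same number was small, with 2 pairs each. It was 0.0564 in microglia, 0.00416 in NeuN+ and 0.00505 in Olig2+ nuclei. It does not register an offset shared by all peaks, so it cannot decide whether the numbers pair. In microglia, replicate 1 had the larger share of tags in peaks in both genotypes (55.8% and 48.7% in WT, 67.4% and 53.7% in SgshKO). With the block the members called were 20, 8 and 14. Reads per peak were few (medians of 17 to 39), which limits what can be said of the low peaks.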
